A study of Mus musculus with 8 samples.

Results

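The genes described here carry the symbols of the nuclear-encoded subunits of respiratory complexes III, IV and V. They were taken by name alone, as every row of the count table whose symbol begins with Uqcr (complex III), with Cox4i, Cox5, Cox6, Cox7 or Cox8 (complex IV) or with Atp5 (complex V). The rule found 43 of 24469 rows, 8 for complex III, 18 for complex IV and 17 for complex V. The names also take in Atp5s and Atp5sl, which are not counted among the subunits of complex V. They take in Cox7a2l too, which joins complexes III and IV into supercomplexes. They leave out Cyc1 of complex III, Ndufa4 of complex IV and Usmg5 and 2010107E04Rik of complex V, subunits that bear other names. RNA came from islets picked by hand from the pancreas of mice aged 8 weeks. The wild-type group was 4 C57BL/6 mice. The knockout group was 4 mice on a C57BL/6 background with loss of function of the snoRNAs U32a, U33, U34 and U35a, which lie in introns of Rpl13a and guide RNA methylation. The labels name no tissue-specific driver for this loss, and each library was made from a different mouse. Here the question is how the transcripts of these subunits compare between the genotypes.

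Complex III passes electrons from ubiquinol to cytochrome c, complex IV passes them from cytochrome c to oxygen, and both pump protons out of the mitochondrial matrix. Complex V, the ATP synthase, lets the protons back and makes ATP. In the beta cell, ATP made this way from glucose closes the ATP-sensitive potassium channel and so leads to insulin release. Each complex also holds subunits encoded by mitochondrial DNA, for which the count table has no row under the names searched.

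Assigned counts ran from 21.2 M to 41.1 M per library. The wild-type libraries together held 9 counts of the targeted snoRNA U32a and 6 of U33, and no knockout library held any, where 0 allows up to 3 counts in a library. U34 and U35a had 0 counts in all 8 and check nothing. The host gene Rpl13a was at 105 ± 26 CPM (counts scaled to 1e+06 per library with TMM) in wild type and 97.8 ± 8.16 in the knockout (SD, n = 4 each). Islet hormones were present throughout, with Ins2 at 68900 to 131000 CPM. Exocrine RNA was present too: 35 acinar genes took 2.22 to 29% of counts in wild type and 5.81 to 30.4% in knockout. Wild-type replicate 1 stood apart in the test: without it 1313 genes passed FDR 0.05, against 2 with all 8 libraries, so results that rest on it are given with and without it. Xist was above 1000 counts in wild-type replicate 4 and knockout replicates 1 and 4. With high Xist as a covariate 0 of the subunit genes passed FDR 0.05, as without it.

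In wild-type islets the genes of 1 complex spanned a wide range of levels. Levels between genes are given here as CPM per kilobase of annotated transcript, and randomly primed libraries may count very short transcripts less fully. Within complex III the level ran from 4.36 CPM per kilobase for Uqcrc1, a core protein, to 49.3 for Uqcrq, a small subunit. Uqcrfs1, the Rieske iron-sulfur protein, was at 6.32 and Uqcrc2, the other core protein, at 11.6 CPM per kilobase. Among the tested genes of complex IV it ran from 1.25 for Cox4i2 to 88.4 CPM per kilobase for Cox7a2l. Among the subunit genes of complex V the level ran from 8.21 CPM per kilobase for Atp5g1 to 219 for Atp5l, the g subunit of the membrane part, with Atp5sl and Atp5s below them at 3.54 and 1.32. The catalytic subunits Atp5a1 and Atp5b stood between, at 29.1 and 49.4 CPM per kilobase. RefSeq (GRCm38) lists pseudogenes of Atp5l, Atp5k, Uqcrh, Cox5b, Cox7c, Atp5c1 and Atp5f1, and the authors' counting could have split reads between copies, so the values of these genes are uncertain throughout.

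**Figure D1:**
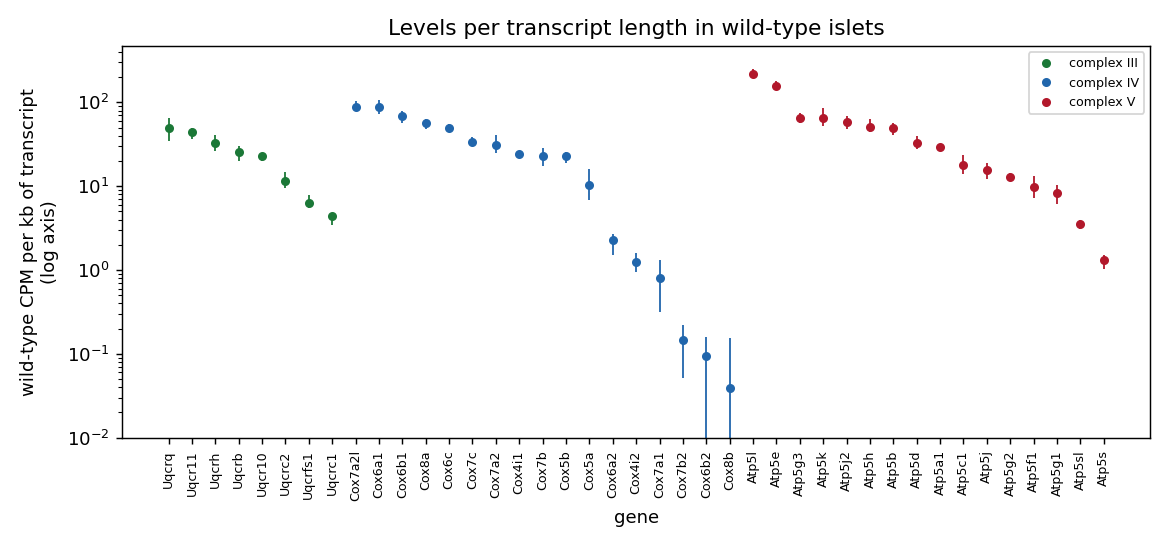
Wild-type level of each gene in CPM per kilobase of transcript, on a log axis; points are means of 4 libraries, lines run from the lowest to the highest library, and a line that reaches the bottom includes a library at 0. Uqcrc1 is lowest in complex III at 4.36 and Atp5l highest in complex V at 219. Cox8c, at 0 counts, and Atp5o, without a matched transcript length, are not drawn.

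Several complex IV subunits exist as a common form and a form known from heart and skeletal muscle, lung or testis. In these islets the common form held nearly all counts of each pair. Cox4i2, the form known for oxygen sensing in lung, gave 4.78% of Cox4i counts in wild type and 3.5% in knockout on average. The muscle form Cox6a2 gave 3.15 and 2.72% of Cox6a1 plus Cox6a2 counts, and the muscle form Cox7a1 gave 1.8 and 1.03% of Cox7a1 plus Cox7a2 counts. Cox6a2 had, in replicate order, 51, 60, 30 and 61 wild-type counts and 17, 49, 24 and 30 knockout counts. The groups overlapped, and its log2 fold change (knockout over wild type) was -0.42 ± 0.26 (SE, n = 4 each, edgeR adjusted p = 0.388). Genes of skeletal and heart muscle were near the floor in both groups: the 11 listed summed to 3.19 to 7.4 CPM in wild type and 4.37 to 8.08 CPM in knockout, and Ckm, the muscle creatine kinase, had 4 and 3 counts over each group. The Cox4i2 level was 0.913 ± 0.221 CPM against 0.728 ± 0.153 CPM in the knockout (SD, n = 4 each), with a log2 fold change of -0.32 ± 0.28. Pericytes, a cell type in which Cox4i2 is known, were measured by 9 genes that summed to 157 to 175 CPM in wild type and 153 to 241 CPM in knockout. Rgs5 alone made up 123 and 147 CPM of the group means, and 7 of the 8 tested genes of that list had negative log2 fold changes, with a median of -0.13. Their part in the Cox4i2 values was not tested.

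Of the 43 genes 5 fell below the low-count filter, all in complex IV. Cox7a1 had 46 counts over wild type and 28 over knockout. The testis forms Cox6b2 and Cox7b2 had 5 and 10 counts over wild type and 5 and 9 over knockout. The muscle form Cox8b had 2 and 5 counts, and Cox8c, another testis form, had 0 in all 8 libraries, which allows up to 3 counts in each. No fold change was computed for these 5. The remaining 38 genes were tested, 8 in complex III, 13 in complex IV and 17 in complex V.

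The 3 genes Atp5g1, Atp5g2 and Atp5g3 encode the c subunit that forms the rotating ring of complex V. They are shown because their mature proteins are the same while their RNAs are not. The last 228 coding bases, from GENCODE transcripts of GRCm38, are given 5′ to 3′ with capitals at the 58 positions where the 3 genes differ.
Atp5g1: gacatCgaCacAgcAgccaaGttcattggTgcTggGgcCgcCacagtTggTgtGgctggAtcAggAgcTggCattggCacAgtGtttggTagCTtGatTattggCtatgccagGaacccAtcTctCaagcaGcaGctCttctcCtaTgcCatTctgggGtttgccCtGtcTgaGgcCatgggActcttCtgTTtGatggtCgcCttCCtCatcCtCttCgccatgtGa
Atp5g2: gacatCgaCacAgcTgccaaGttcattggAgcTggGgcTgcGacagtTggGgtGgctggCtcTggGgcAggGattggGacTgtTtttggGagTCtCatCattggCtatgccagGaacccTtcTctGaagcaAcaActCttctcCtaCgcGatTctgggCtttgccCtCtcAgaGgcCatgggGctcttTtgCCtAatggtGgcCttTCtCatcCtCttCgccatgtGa
Atp5g3: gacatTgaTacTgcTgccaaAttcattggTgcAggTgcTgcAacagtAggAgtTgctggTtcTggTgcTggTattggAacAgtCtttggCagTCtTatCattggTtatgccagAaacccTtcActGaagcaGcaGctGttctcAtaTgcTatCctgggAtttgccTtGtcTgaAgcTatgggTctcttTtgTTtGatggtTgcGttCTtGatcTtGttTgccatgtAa
These bases encode the same 75 residues in all 3 genes, while base identity was 85.1% between Atp5g1 and Atp5g2, 79.8% between Atp5g1 and Atp5g3 and 78.5% between Atp5g2 and Atp5g3. The longest run with no difference among the 3 was 8 bases. G and C made up 45.2% of this stretch in Atp5g3, 54.4% in Atp5g1 and 55.3% in Atp5g2. Over the annotated transcripts Atp5g3 and Atp5g1 were nearly alike, at 50.5 and 51%, and Atp5g2 was at 56.7%.

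Atp5g3 held most of the c subunit counts in every library. Its share of the counts of the 3 genes was 62.4, 66.1, 58 and 59.7% in the wild-type libraries, in replicate order, and 61.1, 71.7, 71 and 72.3% in the knockout libraries. Knockout replicates 2 to 4 lay above all wild-type libraries and knockout replicate 1 lay inside their range. The means were 61.6 ± 3.55% and 69 ± 5.31% (SD, n = 4 each), a difference of 7.49 percentage points (exact permutation test, two-sided, p = 0.0857; 0.114 after adjustment over the 3 genes), where 70 splits allow no p under 0.0286. Atp5g1 made up 28.6 ± 3.81% in wild type and 22.2 ± 4.75% in knockout, and Atp5g2 9.85 ± 0.543% and 8.8 ± 1.01%, with adjusted exact permutation p-values of 0.114 for both. In the test across all genes Atp5g3 had a log2 fold change of 0.39 ± 0.16, Atp5g2 one of 0.04 ± 0.12 and Atp5g1 one of -0.20 ± 0.15 (SE, n = 4 each). The edgeR adjusted p-values were 0.240, 0.889 and 0.484.

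Of the 38 tested genes 0 passed FDR 0.05 with edgeR, where 0.0147% of all 13617 genes tested did. At an unadjusted p under 0.05, 11 of the 38 were higher in the knockout and 0 lower, beside 8.42% higher and 10.3% lower over all genes tested. They were Uqcrfs1, Uqcrc2 and Uqcrb of complex III, Cox6c and Cox5a of complex IV, and Atp5f1, Atp5k, Atp5j, Atp5l, Atp5g3 and Atp5a1 of complex V. DESeq2 called 6 of these 11 at FDR 0.05 and no other member (Uqcrfs1, Uqcrc2, Cox6c, Cox5a, Atp5f1 and Atp5k), all higher in the knockout, where it called 2.01% of 9823 genes with an adjusted p higher and 3.34% lower. Both limma fits called 0 of them, limma-voom beside 0.0147% and limma-trend beside 0.375% of all genes. Without wild-type replicate 1, edgeR called 10 of 39 at FDR 0.05, all higher, beside 3.39% higher and 6.08% lower over all genes. Of these 10, 9 were among the 11, and Atp5c1 was the other. At an unadjusted p under 0.05 that fit had 19 of them higher and 2 lower (Atp5d and Cox6a1), beside 12.2% higher and 15.8% lower over all genes. The subunit genes were not tested as a set. With no composition factor, 1 of the 38, Cox5a, had an unadjusted p under 0.05, higher in the knockout, beside 2.21% of all genes. In limma-trend on the authors' RPM it was again Cox5a alone, beside 1.73% of all genes. Without the composition factor standard errors were wider: Cox5a went from 0.77 ± 0.23 to 0.78 ± 0.34. Atp5f1 went from 0.62 ± 0.16 to 0.57 ± 0.33 and Uqcrc2 from 0.54 ± 0.15 to 0.48 ± 0.33. The median of all genes went from 0.01 to -0.11. Relative to it, the medians of complexes III, IV and V went from 0.15, 0.12 and 0.2 to 0.21, 0.15 and 0.25.

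The summed level of 10 beta-cell genes did not overlap between the groups, by a narrow margin between wild-type replicate 1 and knockout replicate 3. It was 135000 to 184000 CPM in wild type and 106000 to 134000 CPM in knockout. Ins1 and Ins2 made up most of it, at 42500 and 115000 CPM in wild type and 32700 and 77200 CPM in knockout (means, n = 4 each). Of single genes tested, 4.66% had groups that did not overlap in that direction. At an unadjusted p under 0.05, 6 of the 10 were lower, beside 10.3% of all genes, with 0 past FDR 0.05 in edgeR. Without wild-type replicate 1, 5 of the 10 passed FDR 0.05 in edgeR, beside 3.39% higher and 6.08% lower over all genes. In bulk islets fewer cells of a type and less RNA per cell cannot be told apart, and the part of the beta-cell share in the values of the subunit genes was not tested.

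Values by library are given in replicate order. Wild-type replicate 1 was the highest wild-type library for all 11 genes with an unadjusted p under 0.05 in edgeR. Leaving it out therefore raises their fold changes by construction, and the adjusted p-values without it are no separate support. Without knockout replicate 1, the lowest knockout library for the same 11, 0 members passed FDR 0.05. Among the Uqcr genes of complex III the larger values lay on the catalytic Rieske protein, 1 of the 2 core proteins and a small subunit. Uqcrfs1 had wild-type levels of 10.6, 7.8, 8.5 and 7.56 CPM and knockout levels of 10.1, 15.1, 16.3 and 14.2 CPM. Knockout replicates 2 to 4 lay above every wild-type library, and knockout replicate 1 lay just under wild-type replicate 1. Its log2 fold change was 0.70 ± 0.16 (SE, n = 4 each, edgeR adjusted p = 0.120), and 0.80 without wild-type replicate 1 (edgeR adjusted p = 0.0168). Uqcrc2 gave 28.1, 17.9, 21 and 21.1 CPM across wild type against 25.3, 34, 33.5 and 34.8 CPM across the knockout, with the same overlap of both replicates 1. Its log2 fold change was 0.54 ± 0.15 (edgeR adjusted p = 0.147), and 0.66 without wild-type replicate 1 (edgeR adjusted p = 0.0156). Uqcrb, also named ubiquinone-binding protein, measured 16.3, 10.7, 14.9 and 12.9 CPM in the wild-type libraries and 14.5, 21.7, 20.7 and 21 CPM in the knockout libraries. Its log2 fold change was 0.51 ± 0.16 (edgeR adjusted p = 0.163), and 0.59 without wild-type replicate 1 (edgeR adjusted p = 0.0453).

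The other 5 Uqcr genes of complex III were closer to 0. Uqcrh, the hinge protein that docks cytochrome c, had a log2 fold change of 0.20 ± 0.13, Uqcrq one of 0.12 ± 0.19, Uqcr11 one of 0.06 ± 0.11 and Uqcr10 one of 0.02 ± 0.14. Uqcrc1, the partner of Uqcrc2 in the core, had wild-type levels of 5.67, 7.74, 7.64 and 7.76 CPM and knockout levels of 8.82, 6.98, 5.74 and 6.36 CPM. The groups overlapped. The log2 fold change was -0.05 ± 0.16 (edgeR adjusted p = 0.880) and turned to 0.03 when the acinar share was a covariate. The core pair thus had point estimates of 0.54 and -0.05, a difference that was not tested.

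**Figure D2:**
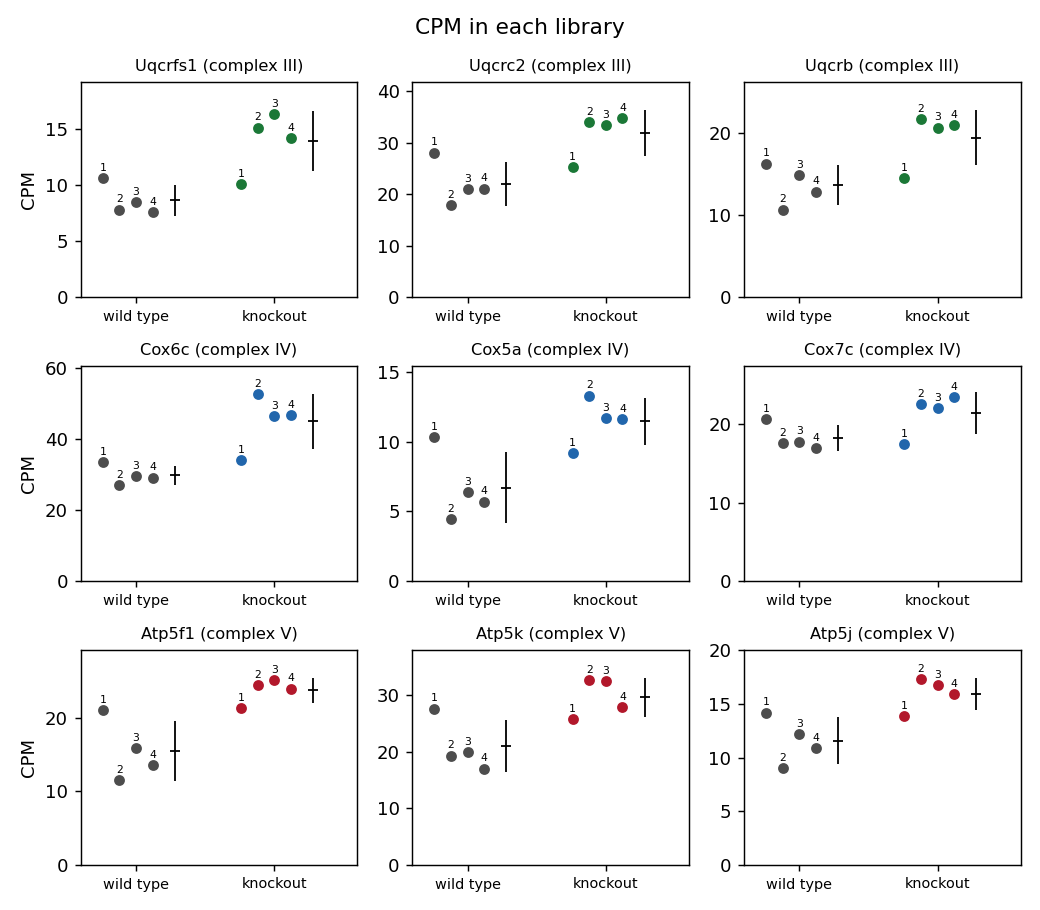
CPM of 9 genes in each wild-type (grey) and knockout (coloured) library, the 3 of smallest p in the positive direction per complex; digits are replicate numbers and bars are the mean ± SD of 4 libraries. Wild-type replicate 1 is the highest wild-type library and knockout replicate 1 the lowest knockout library in each panel; for Atp5f1 they are 21.1 and 21.4 CPM.

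In complex IV, Cox6c and Cox5a stood above the rest. Cox6c, a small membrane subunit, gave 33.5, 26.9, 29.5 and 29.1 CPM across wild type against 34, 52.5, 46.4 and 46.7 CPM across the knockout. The groups did not overlap, by a narrow margin between wild-type and knockout replicate 1. The log2 fold change was 0.60 ± 0.13 (SE, n = 4 each, edgeR adjusted p = 0.116), and 0.64 without wild-type replicate 1 (edgeR adjusted p = 0.021). Cox5a, a matrix-side subunit, gave 10.3, 4.46, 6.36 and 5.69 CPM across wild type against 9.18, 13.3, 11.7 and 11.6 CPM across the knockout. Its log2 fold change of 0.77 ± 0.23 (edgeR adjusted p = 0.168) was the largest of the 38, and without wild-type replicate 1, which overlapped the knockout libraries, it was 1.04 (edgeR adjusted p = 0.00935).

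The remaining 11 tested genes of complex IV had log2 fold changes from -0.42 to 0.28. Cox7c, another small membrane subunit, averaged 18.3 ± 1.66 CPM against 21.5 ± 2.68 CPM in the knockout (SD, n = 4 each), a log2 fold change of 0.23 ± 0.11. Cox7a2 had 0.28 ± 0.15, Cox7b 0.17 ± 0.14, Cox4i1 0.14 ± 0.09, Cox5b 0.13 ± 0.13 and Cox6b1 0.00 ± 0.13. On the negative side Cox6a1, the common form of the subunit, measured 45.1, 41.6, 61.9 and 51 CPM in the wild-type libraries and 45.3, 45, 37.6 and 36.9 CPM in the knockout libraries. The groups overlapped, with a log2 fold change of -0.28 ± 0.13 (edgeR adjusted p = 0.282). Cox7a2l, a relative of Cox7a2 that joins complexes III and IV into supercomplexes, averaged 97.5 ± 11.1 CPM against 89.1 ± 8.58 CPM in the knockout, a log2 fold change of -0.13 ± 0.11. Cox8a had -0.09 ± 0.10.

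In complex V the largest values were those of Atp5f1, Atp5k and Atp5j. Atp5f1, the b subunit of the peripheral stalk, which holds the catalytic head still, measured 21.1, 11.5, 15.9 and 13.6 CPM in the wild-type libraries and 21.4, 24.5, 25.2 and 24 CPM in the knockout libraries. The groups did not overlap, again narrowly between the replicates numbered 1. The log2 fold change was 0.62 ± 0.16 (SE, n = 4 each, edgeR adjusted p = 0.144), and 0.78 without wild-type replicate 1 (edgeR adjusted p = 0.00934). Atp5j, the F6 subunit of the stalk, had wild-type levels of 14.2, 9.03, 12.2 and 10.9 CPM and knockout levels of 13.9, 17.3, 16.8 and 15.9 CPM. Its log2 fold change was 0.47 ± 0.14 (edgeR adjusted p = 0.157), and 0.57 without wild-type replicate 1 (edgeR adjusted p = 0.0248). The other stalk genes Atp5o, for the subunit that tops the head, and Atp5h, the d subunit, had 0.33 ± 0.22 and 0.19 ± 0.12.

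Atp5k, the e subunit of the membrane part, gave 27.6, 19.3, 19.9 and 17 CPM across wild type against 25.7, 32.6, 32.4 and 27.8 CPM across the knockout. Its log2 fold change was 0.50 ± 0.15 (SE, n = 4 each, edgeR adjusted p = 0.152), and 0.65 without wild-type replicate 1 (edgeR adjusted p = 0.0119). Atp5l, the g subunit, had 0.38 ± 0.13 and the f subunit gene Atp5j2 had 0.06 ± 0.13. In the catalytic head Atp5c1, the gamma shaft, had 0.28 ± 0.15, Atp5a1 0.24 ± 0.10, Atp5b 0.21 ± 0.12 and the epsilon gene Atp5e 0.08 ± 0.10. The delta gene Atp5d measured 26.2, 29.4, 36.7 and 30.1 CPM in the wild-type libraries and 28.1, 29.3, 26.1 and 22.4 CPM in the knockout libraries. These overlapped, with a log2 fold change of -0.21 ± 0.12 (edgeR adjusted p = 0.359). Atp5sl and Atp5s, which carry the prefix but are not counted among the subunits, had -0.17 ± 0.14 and -0.16 ± 0.22.

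**Figure D3:**
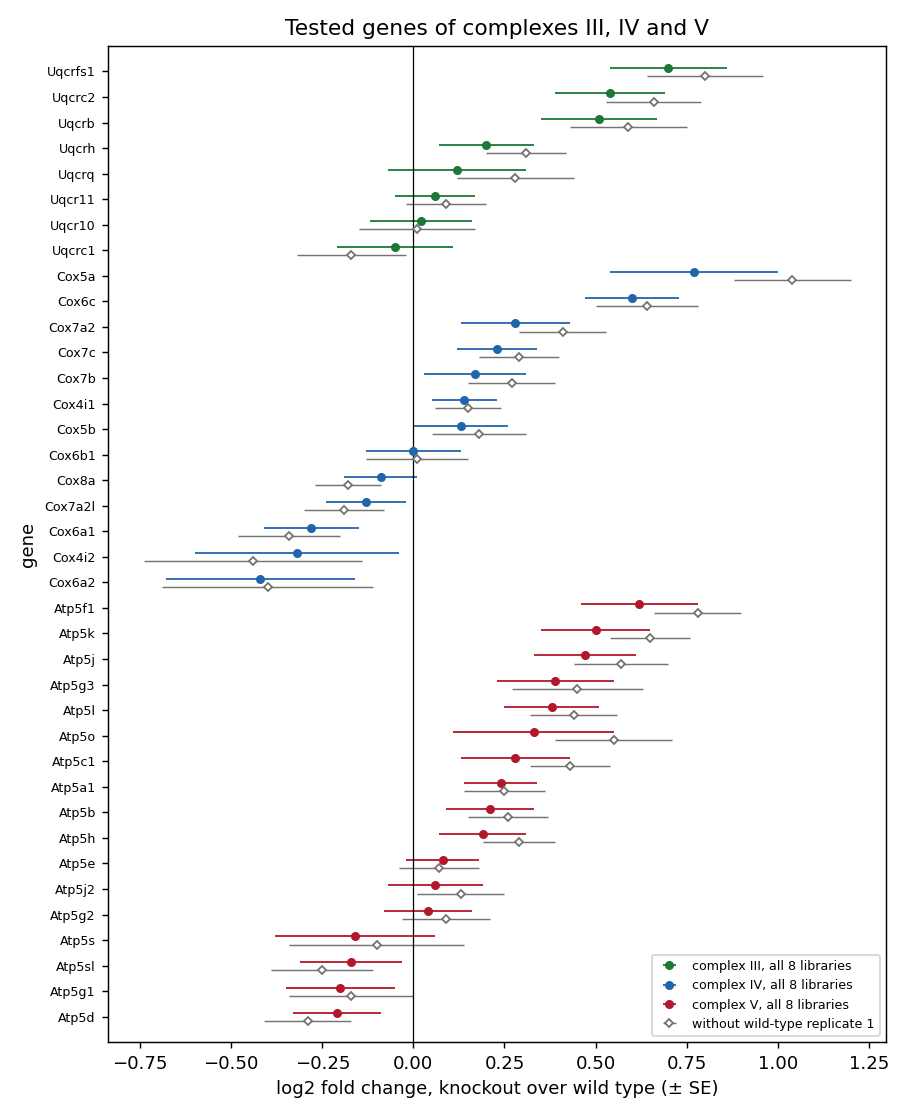
Log2 fold change (knockout over wild type) ± SE of the 38 tested genes, grouped by complex, with all 8 libraries (filled) and without wild-type replicate 1 (open). Values run from -0.42 for Cox6a2 to 0.77 for Cox5a, and each complex holds values on both sides of 0.

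The 3 complexes are set side by side here, each by the genes the naming rule took. Cyc1, Ndufa4, Usmg5 and 2010107E04Rik, subunits the rule leaves out, are not in these counts. Their log2 fold changes were -0.03 ± 0.16, 0.31 ± 0.16, 0.39 ± 0.18 and 0.25 ± 0.17 (SE, n = 4 each). The edgeR adjusted p-values were 0.922, 0.315, 0.273 and 0.426. In complex III 7 log2 fold changes were positive and 1 negative, their median was 0.16 and their range -0.05 to 0.70. Complex IV had 8 positive and 5 negative with a median of 0.13 and a range of -0.42 to 0.77, and complex V had 13 positive and 4 negative with a median of 0.21 and a range of -0.21 to 0.62. The median over all genes tested was 0.01, and 51.3% of them were positive, beside 73.7% of the 38. At an unadjusted p under 0.05, 3 of 8 genes of complex III, 2 of 13 of complex IV and 6 of 17 of complex V were higher in the knockout, beside 8.42% of all genes. Atp5s and Atp5sl gave 2 of the 4 negative values of complex V. No difference between complexes was tested. The complex IV median was -0.02 in limma-trend on the authors' RPM, where the median over all genes was -0.09.

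The wild-type libraries stood in the same order in the 3 complexes, and the knockout libraries did not. The median log2 deviation from the wild-type mean in complex III was 0.29, -0.27, 0.11 and -0.06 in the wild-type libraries, in replicate order, and 0.20, 0.31, 0.29 and 0.05 in the knockout libraries. For complex IV the values were 0.13, -0.19, 0.03 and 0.01 and then -0.12, 0.26, 0.13 and 0.06. For complex V they were 0.21, -0.18, 0.07 and -0.10 and then 0.00, 0.20, 0.27 and 0.18. Wild-type replicate 2 was the lowest library in each complex, wild-type replicate 1 the highest wild-type library, and the groups overlapped in all 3. Without wild-type replicate 2 the medians were 0.05, 0.05 and 0.13 for complexes III, IV and V. Without wild-type replicate 1 they were 0.29, 0.15 and 0.26, and without knockout replicate 2 the complex IV median was 0.03.

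**Figure D4:**
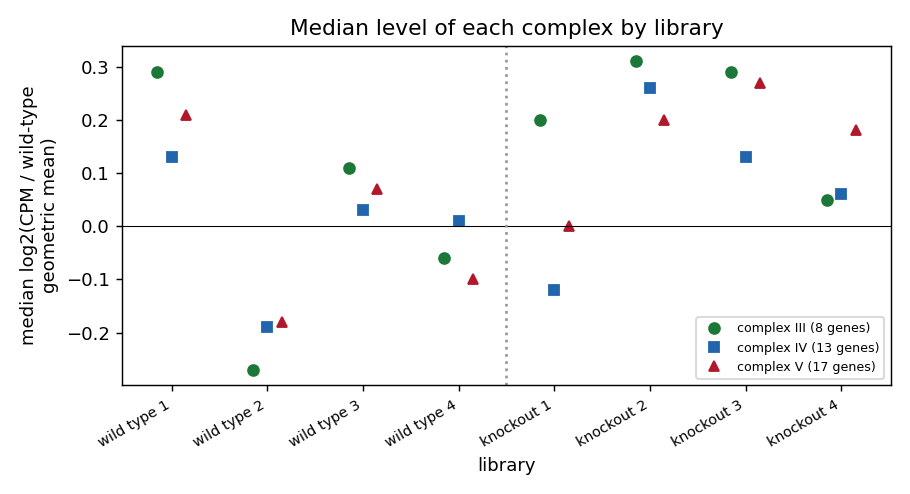
Median over the tested genes of each complex of log2 CPM over the gene's wild-type geometric mean, by library. Wild-type replicate 2 is lowest for all 3 complexes (-0.27, -0.19 and -0.18), and wild-type replicate 1 lies among the knockout libraries.

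Wild-type replicate 1 was the highest wild-type library for 24 of the 38 genes and for all 11 with an unadjusted p under 0.05, beside 31.3% of all genes tested. Knockout replicate 1 was the lowest knockout library for 23 of the 38 and for the same 11, beside 29.2% of all genes. Only 2 of the 38 genes, Cox6c and Atp5f1, had groups that did not overlap, both higher in the knockout, which is 5.26% beside 3.68% over all genes tested. In the lower direction it was 0 of the 38, beside 4.66%. The acinar share was 29% in wild-type replicate 1 and 2.22% in wild-type replicate 2, and 24.1, 5.81, 30.4 and 19.3% in the knockout replicates. When this share was a covariate, 10 of the 11 genes still had an unadjusted p under 0.05, beside 8.23% of all genes in that direction. The medians then were 0.09, 0.10 and 0.17 for complexes III, IV and V. With the covariate and without wild-type replicate 1, Atp5f1, Atp5k, Cox5a and Cox6c passed FDR 0.05, all higher, beside 1.2% of all genes in that direction.

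Fold change ran with the GC content of the transcript, a property the choice of genes did not use. Over the 37 tested genes with an annotated transcript, Spearman's rho between GC content and log2 fold change was -0.58, and it was -0.47 over all 13490 genes with one. Both are across genes of the same 8 libraries, and genes are not independent replicates. The 12 members of lowest GC content (39.6 to 49.2%) had a median log2 fold change of 0.45, and 7 of them were higher at an unadjusted p under 0.05. All genes in that range had a median of 0.13, with 14.3% higher at that p. The middle 13 (49.8 to 52.8%) had a median of 0.13, with 3 higher, where all genes in the range had a median of -0.03 and 5.44% higher. The 12 of highest GC content (54.5 to 61.1%) had a median of -0.01, with 1 higher, Atp5k, where all genes in the range had a median of -0.20 and 2.2% higher.

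The coding sequences of Uqcrb and Cox6a1 lie toward the 2 ends of the range, and each is given by its first 300 bases (GENCODE transcripts, GRCm38, 5′ to 3′). This pair was picked with the values known, and capitals mark G and C.
Uqcrb: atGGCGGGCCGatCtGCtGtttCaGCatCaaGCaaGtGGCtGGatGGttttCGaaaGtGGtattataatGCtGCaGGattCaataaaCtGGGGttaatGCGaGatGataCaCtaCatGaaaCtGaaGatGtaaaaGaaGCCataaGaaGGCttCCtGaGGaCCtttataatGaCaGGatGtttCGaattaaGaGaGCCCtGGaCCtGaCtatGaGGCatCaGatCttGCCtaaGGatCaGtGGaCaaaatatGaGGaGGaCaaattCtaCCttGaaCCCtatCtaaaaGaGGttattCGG
Cox6a1: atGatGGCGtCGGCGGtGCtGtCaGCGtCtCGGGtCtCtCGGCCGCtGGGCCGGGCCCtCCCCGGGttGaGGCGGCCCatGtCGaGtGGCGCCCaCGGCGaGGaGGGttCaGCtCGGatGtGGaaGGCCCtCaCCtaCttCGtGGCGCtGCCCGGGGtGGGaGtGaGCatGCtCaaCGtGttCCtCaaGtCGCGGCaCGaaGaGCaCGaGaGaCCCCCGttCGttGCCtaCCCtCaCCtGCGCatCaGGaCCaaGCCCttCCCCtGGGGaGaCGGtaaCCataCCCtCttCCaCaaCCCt
G and C made up 42.7% of these bases in Uqcrb, whose log2 fold change was 0.51, and 66.3% in Cox6a1, whose log2 fold change was -0.28. Over the whole coding sequences, of 336 and 339 bases, the shares were 42.9 and 64.3%. Other genes depart from this pairing in the same stretch: the first 300 coding bases of Uqcrfs1, whose log2 fold change was 0.70, and of Atp5b, at 0.21, both held 65.7% G and C. Over their whole coding sequences the shares were 54.3 and 53.1%, and over the annotated transcripts 48.6 and 51.6%. By transcript Uqcrfs1 was among the 12 members of lowest GC content.

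**Figure D5:**
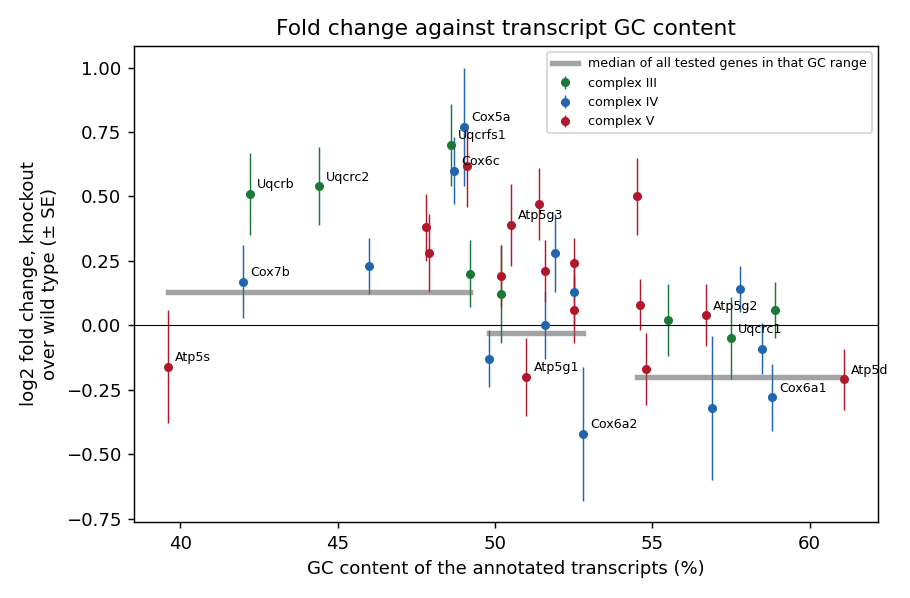
Log2 fold change (knockout over wild type) ± SE against GC content of the annotated transcripts for 37 tested genes, coloured by complex; grey bars are the median of all tested genes in the GC range of the 12, 13 and 12 members of lowest, middle and highest GC content. The grey medians go from 0.13 to -0.20, and Uqcrb and Cox6a1 lie toward opposite ends.

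The trend with GC content differed between libraries, and again the replicates numbered 1 stood apart from their groups. At 58% GC the fitted deviation from the mean of the libraries was -0.058 in wild-type replicate 1 and 0.15 to 0.19 in the other wild-type libraries. It was -0.014 in knockout replicate 1 and -0.17 to -0.13 in the other knockout libraries. After this trend was removed from each library, 12 of 37 members had an unadjusted p under 0.05, all higher in the knockout, beside 6.42% higher and 6.19% lower over all genes. They were the same 11 genes and Cox4i1. The medians were 0.24, 0.13 and 0.22 for complexes III, IV and V (0.34, 0.13 and 0.34 without wild-type replicate 1), and rho over the 37 genes was -0.20. The fit called 0 of the members at FDR 0.05, beside 0.0222% of all genes. Without wild-type replicate 1 it called 6, all higher, beside 0.895% of all genes in that direction: Atp5f1, Atp5j, Atp5k, Cox4i1, Cox5a and Uqcrfs1. At an unadjusted p under 0.05, 19 of 38 were then higher, beside 9.63%. The genes Atp5d, Cox7b, Cox8a and Uqcrc1 changed sign with the trend removed, to 0.08, -0.01, 0.15 and 0.16.

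Genes that assemble, feed or serve the 3 complexes were taken in lists, and the counts given for them are at an unadjusted p under 0.05. Over all genes tested 8.42% were higher and 10.3% lower at that p. The groups did not overlap for 3.68% of all genes in the higher direction and 4.66% in the lower. A count of 1 or 2 in a list this small carries little weight, and no list was tested. Of 9 tested genes of complex III assembly, cytochrome c and Cyc1, 1 was higher and 1 lower, close to the shares over all genes. Their median was -0.02. Cycs, cytochrome c itself, averaged 14.2 ± 4.00 CPM against 19.8 ± 2.52 CPM in the knockout, a log2 fold change of 0.49 ± 0.19. Uqcc2, an assembly factor of complex III, averaged 26.1 ± 2.27 CPM against 21.4 ± 1.5 CPM in the knockout (SD, n = 4 each). The groups did not overlap, and the log2 fold change was -0.28 ± 0.10 (SE; adjusted p = 0.186 in edgeR). Of 25 genes that assemble or accompany complex IV, Ndufa4 among them, 2 were higher and 1 lower. This was close to the share over all genes, with a median of 0.06. Coa5 averaged 21.1 ± 1.5 CPM against 28.8 ± 2.41 CPM in the knockout. Its groups did not overlap either, and its log2 fold change was 0.45 ± 0.10 (edgeR adjusted p = 0.116), while Cox20 had 0.56 ± 0.15. Both are assembly factors, and both passed FDR 0.05 in edgeR without wild-type replicate 1 (adjusted p = 0.0151 and 0.0194). That library was the highest wild-type library for both genes, so these calls are no separate support. In the same list the groups of Lrpprc and Higd1a, higher in the knockout, and of Cox10, lower, did not overlap either.

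Of 7 genes that assemble or accompany complex V, 2 were higher and 0 lower, beside 8.42% and 10.3% over all genes, with a median of 0.25. These were Fmc1 at 0.38 ± 0.14 and Tmem70 at 0.48 ± 0.19, both assembly factors. The 6 complex II genes had 0 in either direction and a median of -0.01, with Sdhd at -0.15 ± 0.16 and Sdhaf2 at 0.09 ± 0.12. All 6 tested genes of the ADP/ATP, phosphate and outer membrane carriers had positive values (51.3% over all genes) with a median of 0.22, and 2 were higher: Vdac3, an outer membrane channel, at 0.46 ± 0.15 and Slc25a5, an ADP/ATP translocase, at 0.50 ± 0.19. Without wild-type replicate 1, 3 of the 6 passed FDR 0.05 in edgeR, all higher, beside 3.39% of all genes in that direction. They were Vdac3, Vdac2 and Slc25a5 (edgeR adjusted p = 0.0118, 0.0294 and 0.038). Wild-type replicate 1 was the highest wild-type library for all 3, so these calls without it are no separate support. Of 14 transcription factors of respiratory genes 2 were higher and 0 lower, again beside 8.42% and 10.3% over all genes, with a median of 0.19. Ppargc1a, the coactivator of mitochondrial biogenesis, had wild-type levels of 3.36, 2.83, 2.18 and 1.54 CPM and knockout levels of 3.76, 4.7, 4.73 and 3.57 CPM. The groups did not overlap, as for 3.68% of all genes tested in that direction. The log2 fold change of Ppargc1a was 0.76 ± 0.23 (SE, n = 4 each, edgeR adjusted p = 0.160), and 0.93 without wild-type replicate 1 (edgeR adjusted p = 0.0319). Again that library was the highest wild-type library, so the value without it is no separate support. Gabpb1, a subunit of the factor GABP, had 0.32 ± 0.14. Ppargc1a is also known from brown fat. Of the 7 adipocyte genes listed only 1 passed the low-count filter. Its log2 fold change was 1.14, with an unadjusted p under 0.05 in edgeR, and it did not pass FDR 0.05. The 7 genes summed to 2.59 to 5.22 CPM in wild type and 5.71 to 13.8 CPM in knockout. These low sums did not overlap between the groups, where 3.68% of single genes tested did not in that direction. Adipoq and Plin1 were at 0 in every library. Ucp1, which defines brown fat, had 5 and 1 counts over each group. The part of the adipocyte genes in the Ppargc1a values was not tested. Of the genes in these lists 0 passed FDR 0.05 with edgeR when all 8 libraries were used.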

How the data were processed

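Partek, the aligner STAR 2.4.1 and build mm9 of the mouse genome appear in the submitters' processing notes; which did what, and the annotation, is not given in the sources used here. As deposited, the first table holds estimated counts per gene, of which 9.98 to 12.4% per library were not whole within 0.01; they were rounded before any count test. The deposited second table holds RPM made by the authors, used only in limma-trend as log2(RPM + 1). Libraries were made from total RNA with the SeqPlex kit, per the labels' protocols.

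Counts were tested with edgeR 4.0.16 (R 4.3.3): TMM scaling, filterByExpr with the genotype groups, a quasi-likelihood F-test with robust dispersions over 13617 genes and Benjamini-Hochberg adjustment. Standard errors come from the F statistic. P-values measure the spread among 4 mice per group. Libraries were no copies: the smallest shift between 2 libraries of a group was 44.6 times sampling noise. Limits from counts of 0 cover counting error only.

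Members and lists were chosen with earlier results of these data known. Named are, per complex, up to 3 tested members of smallest p in each direction, and all isoform groups and members below the filter. Up to 2 genes per pathway list are named too. Other members, and Cyc1, Ndufa4, Usmg5 and 2010107E04Rik, are given for completeness. Transcript length and GC are medians over coding transcripts of GENCODE M21 (GRCm38), matched by symbol or synonym for 42 of 43 members and 98.3% of all genes; since the files use mm9, no coordinates are given. Alternatives were DESeq2 1.42.0, limma 3.58.1 (voom, trend), other normalizations and filters, covariates for acinar share and high Xist, the replicate number as a block, and each library left out. Chosen after seeing the data were the removal of a lowess GC trend (span 0.3) and combinations without wild-type replicate 1.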

Additional observations from a re-analysis of the deposited data

Results flagged for a closer look

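Of 76 groups of 4 libraries tested for a single stray library, 1 per tested gene and genotype, 4 had one; chance alone gives such a flag in about 1 in 20 groups. Uqcrb was at 14.5 CPM in knockout replicate 1 and at 20.7 to 21.7 CPM in the other knockout libraries, a gap of 0.851 of the group's range. Uqcrc2 was at 25.3 CPM in the same library and at 33.5 to 34.8 CPM in the others, a gap of 0.862 of the range. Uqcrc1 was at 5.67 CPM in wild-type replicate 1 and at 7.64 to 7.76 CPM in the other wild-type libraries, a gap of 0.941 of the range. Cox6a2 was at 1.6 CPM in knockout replicate 2 and at 0.964 to 1.06 CPM in the others, a gap of 0.848 of the range.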

How the results depend on the processing

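Over 24 alternatives, the count of members at FDR 0.05 stayed at 0 except for 6 with DESeq2, 4 with the acinar covariate without wild-type replicate 1, 6 with the GC trend removed without it, and a range of 0 to 10 over the libraries left out, 10 without wild-type replicate 1. Over all genes the count was 48 with no composition factor (37 higher, 11 lower), 525 with DESeq2 (197 higher, 328 lower) and 51 with limma-trend (34 higher, 17 lower). It was 2 to 1313 over the libraries left out, 1313 with wild-type replicate 1 left out and 5 with knockout replicate 4 left out. Without wild-type replicate 1 it was 271 with the acinar covariate, 125 with no composition factor and 211 with the GC trend removed. Members higher at an unadjusted p under 0.05 numbered 1 with no composition factor, with or without wild-type replicate 1, 1 with limma-trend, 9 to 19 over the libraries left out (19 without wild-type replicate 1) and 19 with the GC trend also removed. Members lower numbered 1 without the filter and 0 to 2 over the libraries left out. With no composition factor and without wild-type replicate 1, where the median of all genes was -0.25, the medians were -0.08 for complex IV and 0.03 for complex V. The complex medians ranged over the libraries left out from 0.05 to 0.29 (III), 0.03 to 0.15 (IV) and 0.13 to 0.26 (V). The cause of these differences was not tested.

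Of the named genes 8 changed sign under some alternative. Cox6b1 (0.00 with all libraries) was -0.09 with no composition factor, -0.01 without the filter, -0.00 with the replicate block, -0.02 with the acinar covariate, -0.14 with limma-trend, -0.08 to 0.08 over the libraries left out, and, without wild-type replicate 1, -0.04 with the acinar covariate and -0.21 with no composition factor. Atp5g2 (0.04) was -0.06 with no composition factor, -0.01 with the acinar covariate, -0.09 with limma-trend, -0.01 to 0.09 over the libraries left out, and -0.15 with no composition factor without wild-type replicate 1. Cox4i1 (0.14) was -0.00 with limma-trend and -0.08 with no composition factor without wild-type replicate 1. Cox6a2 (-0.42) was 0.02 with the acinar covariate without wild-type replicate 1. Uqcrc1 (-0.05) was 0.03 with the acinar covariate, -0.19 to 0.02 over the libraries left out, 0.16 with the GC trend removed and 0.11 when wild-type replicate 1 was also left out. With the GC trend removed, with and without wild-type replicate 1, Atp5d was 0.08 and 0.07 and Cox8a 0.15 and 0.13, and Cox7b was -0.01 with all libraries.

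With the replicate number as a block, 10 members were higher at an unadjusted p under 0.05 and 0 passed FDR 0.05. Same-numbered libraries correlated in their deviations at 0.0383, 0.21, 0.156 and 0.147 for numbers 1 to 4. With a knockout library of another number, the wild-type libraries correlated at most at 0.287, 0.03, 0.0533 and 0.0614, in replicate order. Wild-type libraries numbered 2 to 4 thus correlated best with the knockout of their own number, which is a hint from the data only. Wild-type replicate 1 did not. Its 0.287 was above every same-number value. So at least 1 knockout library numbered 2 to 4 correlated better with wild-type replicate 1 than with its own number. The labels do not say that numbers pair mice, and the block was not used.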
